A study of Mus musculus with 5 samples.

Results

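The genes described here build, load and move cilia. They were 75 of the 52029 genes in a table of 4 libraries, chosen by gene symbol alone: names beginning Ift, Bbs, Tctn or Nphp followed by a digit, Dnah or Dnai followed by a digit, Dnaaf or Rsph, together with Foxj1, Mcidas, Gmnc, Ccno, Rfx2, Rfx3, Pkhd1, Arl13b and Dnali1. By name 43 belong to the motile cilium, 30 to the general machinery that primary cilia also use, and 2 are RFX transcription factors. The name pattern also took in 2 antisense transcripts, Dnah2os in the motile class and Ift88os in the general class.

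The samples are hepatobiliary organoids, clusters grown in culture from wild-type primary mouse liver stem/progenitor cells. One group was grown with liver endothelial cells and was at passage 8 (3 libraries); the other was grown alone and was at passage 1 (2 libraries). Both were collected at day 10, in a medium with EGF, the kinase inhibitor Y-27632, nicotinamide, heparin and endothelial growth supplement, and total RNA was sequenced after removal of ribosomal RNA. Passage and co-culture move together, so their effects cannot be told apart, and the sources used here do not give the mice's strain, age or number. Nothing says that the libraries came from separate cultures or animals, so the p-values below rest on a spread between libraries that may be technical only.

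Co-culture libraries M9 and M10 and alone libraries M11 and M12 stand in 1 table and were tested against each other. The third co-culture library has a table of its own, made on another gene annotation, so its values are set beside the others with no test. Of the 75 members, 63 were matched to it by symbol, 9 by gene number and 3 not at all (Dnah2os, Ift88os and Rsph10b), and Tctn2, with 2988 counts, was only in that table. Total counts were 33881617, 35878241 and 58853737 in M9, M10 and the third co-culture library, against 26466739 and 29195328 alone. The third library stood apart in other ways: mitochondrial messages took 5.93% of its counts, against 2.06% to 2.58% in the other 4, and its total was the highest. The 10 hepatocyte markers summed to 500.4, 442 and 638 counts per 1000000 (CPM) in M9, M10 and the third co-culture library, against 369 and 468 CPM alone. Of 6 tested, 3 (Apoa1, Ttr and Hnf4a) were higher in both M9 and M10 than in both libraries alone, against 24.3% of all tested genes. The other 3 (Alb, Fga and Fgb) were lower, against 25.1%. Hnf4a, the most abundant, had 14061, 10611 and 18967 counts in co-culture, against 7899 and 8663 counts alone. Alb (albumin) had 5, 9 and 3847 counts in co-culture, against 442 and 1472 counts alone. Summed levels of 8 cholangiocyte markers were 10331, 9480 and 5228 CPM in M9, M10 and the third co-culture library, against 6644 and 8634 CPM alone, so the label of liver progenitor or bile duct type cells fits the markers. The 12 endothelial markers summed to between 1.12 and 1.69 CPM in co-culture and to 1.56 and 2.26 CPM alone, with Clec4g at 0 in every library, so endothelial RNA was near 0 in both groups. The 10 mesenchymal markers summed to 2.1, 3.3 and 8.3 CPM in co-culture, against 27.9 and 87.3 CPM alone. The part of these marker differences in the results below was not tested.

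A primary cilium is a single, immotile antenna that stands on most epithelial cells, and on bile duct cells it reaches into the duct and senses flow and solutes. It is built by intraflagellar transport (IFT), in which kinesin carries IFT-B trains to the tip and dynein carries IFT-A trains back, with the BBSome as an adaptor for membrane cargo and the transition zone as a gate at the base. Motile cilia, as on airway or ependymal cells, add axonemal dynein arms, which need assembly factors in the cytoplasm, and radial spokes. Their genes are switched on by Foxj1 and RFX factors, and Gmnc and Mcidas act upstream of Foxj1 in multiciliated cells, while Ccno acts below Mcidas in making many centrioles.

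RFX factors bind the X-box, a palindrome found before many ciliary genes. RefSeq promoters (GRCm38.p6, 250 bases before to 50 bases after the start of the gene) were found for 60 members. The letters GTNNCC, 3 free bases and GNAAC, on either strand, occurred in 13 of the 60 (21.7%, 95% Wilson interval 13.1% to 33.6%, which treats promoters as independent) and in 673 of 27025 promoters of all genes (2.49%). The general class held 7 of 24 and the motile class 6 of 34. The core letters GTTGCC, which overlap the palindrome, were in 27 of 60 member promoters (45.0%) and in 14.1% of all. The forkhead letters GTAAACA were in 1 of 60, Dnah17, and in 4.05% of all promoters. A match is a description of letters and not a binding site. The matches of 8 members are shown with up to 8 bases on either side because they span the roles described below; capitals mark the palindrome on the gene's strand. Ift22 holds 2 matches, of which the one nearer the start is shown.

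Ift57 (chr16:49699199-49699228, plus strand): cgggtctgGTTGCCGTGGTGACcggctgcc
Ift22 (chr5:136908109-136908138, plus strand): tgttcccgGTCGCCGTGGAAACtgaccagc
Bbs1 (chr19:4906605-4906634, minus strand): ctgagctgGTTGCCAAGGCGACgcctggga
Bbs7 (chr3:36613489-36613518, minus strand): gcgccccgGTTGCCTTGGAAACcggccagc
Tctn1 (chr5:122264411-122264432, minus strand): ctgtgactGTTGCCCGGGCAAC
Nphp4 (chr4:152477903-152477932, plus strand): cggtgcccGTCTCCTAGGTAACgcgccagc
Dnaaf5 (chr5:139150209-139150238, plus strand): tagcgccgGTTCCCTTGGAGACaggcaacg
Ccno (chr13:112987575-112987604, plus strand): gggctgcgGTTGCCACGGTGACgacagacg

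The general machinery was present throughout, while most of the motile machinery was scarce. On a per-length scale (counts divided by the bases covered by a gene's exons in GENCODE M21, rescaled so that each library sums to 1000000), the median general member stood at 14.7 in co-culture libraries M9 and M10 and 12.3 alone. The median motile member stood at 0.20 in co-culture and 0.33 alone. A mean of at least 1 on that scale over the 4 libraries was reached by 29 of 30 general members and by 17 of 43 motile ones. Of all 75 members, 14 had under 10 counts in every one of the 4 libraries and 3 were at 0 in all of them: Gmnc, Dnaaf6 and Rsph14. Rsph14 had 4 counts in the third co-culture library, and the other 2 had 0 there too.

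**Figure D1:**
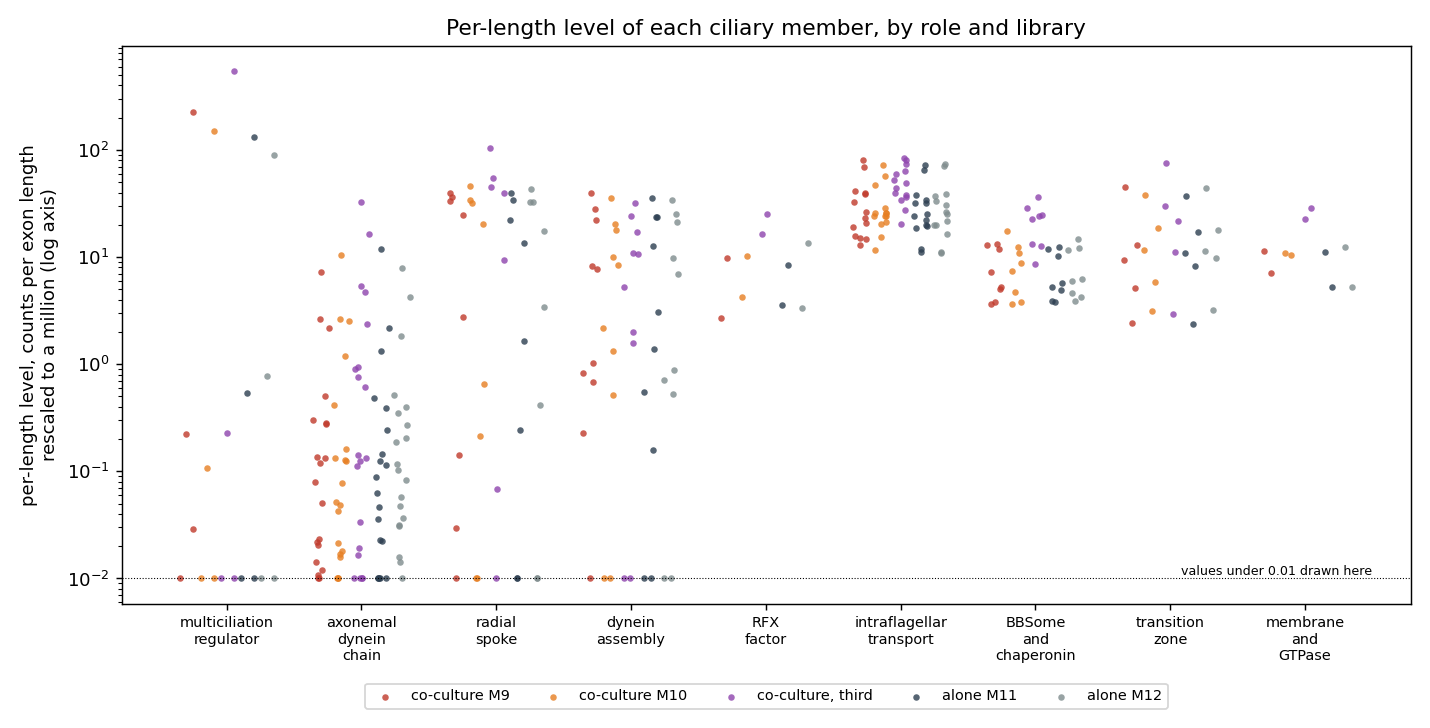
Per-length level of each member (log axis, counts per exon length rescaled to sum to 1000000; values under 0.01 are drawn at 0.01), grouped by role; each point is 1 member in 1 library, with co-culture libraries left of libraries alone. Transport, BBSome and transition zone members sit within a narrow band in all libraries, while the axonemal dynein chains spread down to 0 and Foxj1 stands at 90.2 or above in every library.

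No member passed the test between co-culture libraries M9 and M10 and alone libraries M11 and M12. The quasi-likelihood test of edgeR was run over 15899 genes with p-values adjusted by Benjamini-Hochberg, and it called 356, or 2.24%, at an adjusted p of 0.05. Of the 75 members, 58 had enough counts to be tested. Of these, 34 had a positive and 24 a negative log2 fold change, the median was 0.05, against 0.00 over all genes, and 6 (10.3%) had an unadjusted p under 0.05, against 17.5% of all genes tested, which is also the background for the counts at that p in the lists given later. DESeq2 called 0 of 60 members, against 1323 of 17422 genes. With limma-voom 0 of the 58 were called, against 285 of 15899 genes. The groups did not overlap for 18 members with co-culture higher, against 24.3% of all tested genes, and for 5 with co-culture lower, against 25.1%. These are 31% and 8.62% of the 58. By class, 11 of 27 motile members tested were apart and higher and 3 lower, with a median log2 fold change of 0.07, and 7 of 29 general members were apart and higher and 2 lower, with a median of 0.04. The 0 depended on 2 libraries and on the filter: without M9 the test called 3 of 59 members (Ift172, Pkhd1 and Dnah2, all higher in co-culture), against 15.7% of all genes. Without M10 it called 1 of 60, Foxj1, against 6.68% of all genes, and with no low-count filter 3 of 72 (Foxj1, Ift172 and Pkhd1), against 4.92%.

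**Figure D2:**
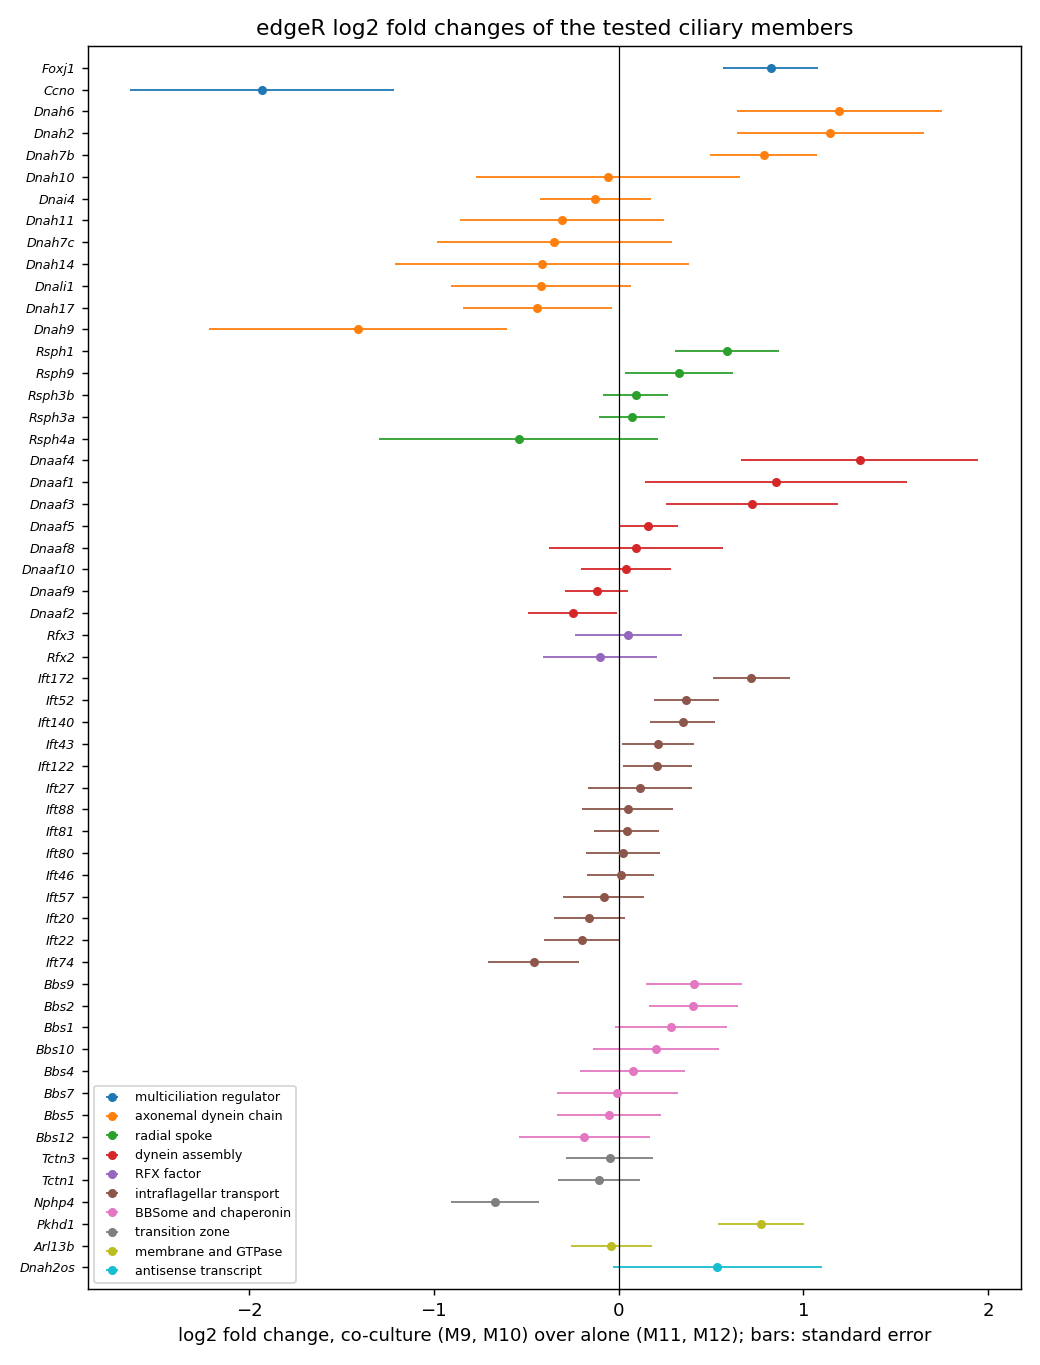
edgeR log2 fold change of 56 of the 58 tested members, co-culture (M9 and M10) over alone (M11 and M12), with standard errors as bars, ordered by role. Most general members lie close to 0, and the widest bars belong to Dnah9, Dnah14 and Rsph4a.

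Among the regulators, Foxj1, the forkhead factor that turns on motile cilium genes, was the most abundant member (chr11:116330704-116335399, minus strand, GRCm38). In CPM scaled over all 5 libraries, as in all per-library CPM that follow, it had 267, 180.5 and 575 CPM in M9, M10 and the third co-culture library, against 146 and 106 CPM alone. All 3 co-culture libraries lay above both libraries alone, and the third lay far above the rest. The log2 fold change of M9 and M10 over alone was 0.82 ± 0.26 (SE, n = 2 libraries each; edgeR adjusted p = 0.187), and it lay between 0.51 and 1.09 when 1 library was left out.

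The other multiciliation regulators were near 0. Mcidas, the coactivator that starts centriole amplification, had 1 count in M9 and 0 in every other library, and its partner Gmnc had 0 in all 5. With 0 counts, the upper limit for Gmnc is 0.0430 CPM over M9 and M10, 0.0510 CPM in the third co-culture library and 0.0539 CPM over M11 and M12 (3 counts of the summed library totals, counting error only). Ccno, a cyclin-like protein needed for centriole amplification, had 6, 3 and 10 counts in M9, M10 and the third co-culture library, against 11 and 18 counts alone. Its groups did not overlap, with co-culture lower (log2 fold change -1.93 ± 0.71, edgeR adjusted p = 0.247).

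Neither of the 2 RFX factors passed the test, and their groups overlapped in M9 and M10 against organoids alone. Rfx2 had 14.9, 15.7 and 34.2 CPM in M9, M10 and the third co-culture library, against 12.1 and 20.5 CPM alone (log2 fold change of M9 and M10 -0.10 ± 0.31, edgeR adjusted p = 0.912). Rfx3, which mouse work ties to primary as well as motile cilia, had 11.3, 17.9 and 62.5 CPM in co-culture, against 14.0 and 14.0 CPM alone (0.05 ± 0.29, adjusted p = 0.957). For both the third library was the highest of the 5.

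The 14 IFT members were all tested, 10 with a positive log2 fold change and 4 with a negative one (median 0.05). Ift172, an IFT-B subunit that takes part in the turnaround at the tip (chr5:31253277-31291116, minus strand), had the smallest p of all members. It had 37.1, 50.2 and 75.3 CPM in M9, M10 and the third co-culture library, against 25.8 and 26.7 CPM alone. The 3 co-culture values all lay above those alone, with M10 above M9 (log2 fold change 0.72 ± 0.21, edgeR adjusted p = 0.160). The IFT-A subunit Ift140 and the IFT-B subunit Ift52 showed the same order with smaller differences, at log2 fold changes of 0.35 ± 0.17 and 0.37 ± 0.17 (edgeR adjusted p = 0.389 and 0.361). Ift88, the IFT-B subunit whose mouse mutants have short or missing cilia, had 20.4, 29.8 and 47.8 CPM in M9, M10 and the third co-culture library, against 25.6 and 22.5 CPM alone. M9 and M10 fell on either side of the organoids alone (log2 fold change 0.05 ± 0.24, edgeR adjusted p = 0.951). Ift74, an IFT-B core subunit, ran the other way in M9 and M10, with 18.6 and 13.8 CPM, but had 47.2 CPM in the third co-culture library, against 20.7 and 23.5 CPM alone. The subunits most abundant per length lay close together in all libraries: Ift43, of IFT-A, stood at 80.1, 72.2 and 84.8 on the per-length scale in M9, M10 and the third co-culture library, against 64.9 and 70.2 alone, and Ift20, of IFT-B, at 69.8, 57.4 and 63.4 in co-culture, against 72.7 and 73.4 alone. The summed per-length level of the 14 was 449.9, 425 and 706 in M9, M10 and the third co-culture library, against 426 and 435 alone.

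The 8 Bbs members encode BBSome subunits and the chaperonin-like proteins that assemble it, and none stood out in the test. Bbs9 had 11.6, 12.03 and 32.7 CPM in M9, M10 and the third co-culture library, against 8.09 and 9.62 CPM alone. Bbs1, the subunit that contacts the small GTPase Arl6, had 13.9, 23.4 and 58.9 CPM in co-culture, against 14.2 and 16.1 CPM alone. Bbs2, a core subunit, had 17.7, 24.5 and 35.9 CPM in co-culture, against 15.5 and 16.1 CPM alone, and Bbs4, which links the BBSome to centriolar satellites, 15, 14.1 and 36.9 CPM in co-culture, against 10.9 and 16.5 CPM alone. For Bbs9 and Bbs2 all 3 co-culture libraries lay above both libraries alone, for Bbs1 and Bbs4 M9 and M10 overlapped them, and for each of the 4 genes the third library was the highest (log2 fold changes of M9 and M10 0.41 ± 0.26 for Bbs9 and 0.29 ± 0.30 for Bbs1, edgeR adjusted p = 0.503 and 0.704).

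At the transition zone, the tectonics Tctn1 and Tctn3 had log2 fold changes of -0.11 ± 0.22 and -0.05 ± 0.23 (edgeR adjusted p = 0.861 and 0.949). Nphp4, a nephrocystin of the gate, had 11.7, 13.4 and 22.5 CPM in M9, M10 and the third co-culture library, against 17.6 and 21.9 CPM alone. M9 and M10 were below both libraries alone, but the third co-culture library was slightly above them (log2 fold change of M9 and M10 -0.67 ± 0.24, edgeR adjusted p = 0.230).

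Pkhd1 encodes fibrocystin, a membrane protein of primary cilia whose loss causes autosomal recessive polycystic disease of kidney and bile ducts (chr1:20057779-20618064, minus strand). It had 41.0, 61.2 and 149 CPM in M9, M10 and the third co-culture library, against 28.7 and 30.7 CPM alone. All 3 co-culture libraries were above both alone, and they differed among themselves more than the libraries alone did (log2 fold change of M9 and M10 0.77 ± 0.23, edgeR adjusted p = 0.176). Arl13b, a ciliary GTPase that shapes the membrane and its signalling, had 18.2, 17.4 and 32.3 CPM in co-culture, against 16.6 and 19.7 CPM alone (-0.04 ± 0.22, adjusted p = 0.956).

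Among the 20 axonemal dynein chains, 11 were tested, 3 with a positive and 8 with a negative log2 fold change. Dnah2, an inner-arm heavy chain, had 3.14, 7.42 and 26.3 CPM in M9, M10 and the third co-culture library, against 2.26 and 2.46 CPM alone. The co-culture libraries were all higher but differed widely among themselves (log2 fold change of M9 and M10 1.15 ± 0.51, edgeR adjusted p = 0.328), and the antisense transcript Dnah2os overlaps the gene; how the authors counted strand is not given in the sources used here. Dnah7b had 14.8, 14.7 and 26.8 CPM in co-culture, against 6.88 and 10.1 CPM alone (0.78 ± 0.29, adjusted p = 0.243). Of its annotated transcript sequence, 38.9% of the stretches of 31 bases also occur in Dnah7a or Dnah7c, so reads may be shared out among the 3 and the Dnah7b value is uncertain. Dnah6, another inner-arm heavy chain, had 1.60, 0.92 and 0.69 CPM in co-culture, against 0.62 and 0.47 CPM alone. Here the third library was the lowest of the co-culture libraries (log2 fold change of M9 and M10 1.19 ± 0.56, edgeR adjusted p = 0.352). Dnah9, a scarce heavy chain, ran the other way in M9 and M10. It had 3, 11 and 38 counts in M9, M10 and the third co-culture library, against 10 and 21 counts alone. M9 and M10 were below both libraries alone (log2 fold change of M9 and M10 -1.41 ± 0.81, edgeR adjusted p = 0.453). Dnali1, an inner-arm light intermediate chain, had 67, 79 and 814 counts in co-culture, against 51 and 111 counts alone, so that M9 and M10 lay within the range of the libraries alone. The outer-arm chains of multiciliated cells were scarce: Dnah5 had 0, 5 and 7 counts in M9, M10 and the third co-culture library, against 8 and 6 alone. Dnai1 and Dnai2, outer-arm intermediate chains, had at most 6 counts in either of M9 and M10, against at most 11 alone; the third co-culture library had 45 and 46.

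Of the 10 dynein assembly factors, the abundant ones had similar levels in M9, M10 and organoids alone. Dnaaf5 had 62.3, 56.1 and 33.6 CPM in M9, M10 and the third co-culture library, against 52.0 and 53.1 CPM alone. Its lowest value was in the third library. Dnaaf4, a scarce cochaperone of the same process, had 0.75, 1.96 and 4.21 CPM in co-culture, against 0.47 and 0.62 CPM alone, with the groups apart (log2 fold change of M9 and M10 1.30 ± 0.64, edgeR adjusted p = 0.378). Dnaaf3, an assembly factor, had 7.84, 8.50 and 9.60 CPM in co-culture, against 2.92 and 6.91 CPM alone; the libraries alone differed more from each other than the co-culture libraries did. Of the 8 radial spoke members, Rsph1, a spoke head protein, had 15.4, 12.7 and 21.8 CPM in co-culture, against 7.97 and 10.6 CPM alone (0.59 ± 0.28, adjusted p = 0.367). Rsph9, another head protein, had 14.5, 15.03 and 41.0 CPM in co-culture, against 9.18 and 14.2 CPM alone (0.33 ± 0.29, adjusted p = 0.643). Rsph4a, also of the spoke head, had 4.52, 1.07 and 13.9 CPM in co-culture, against 2.57 and 5.54 CPM alone, with wide spread in both groups (-0.54 ± 0.76, adjusted p = 0.783). Rsph3a and Rsph3b had log2 fold changes of 0.07 ± 0.18 and 0.09 ± 0.18, and 59.4% and 58.5% of their stretches of 31 bases are shared between them, so their split is uncertain.

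**Figure D3:**
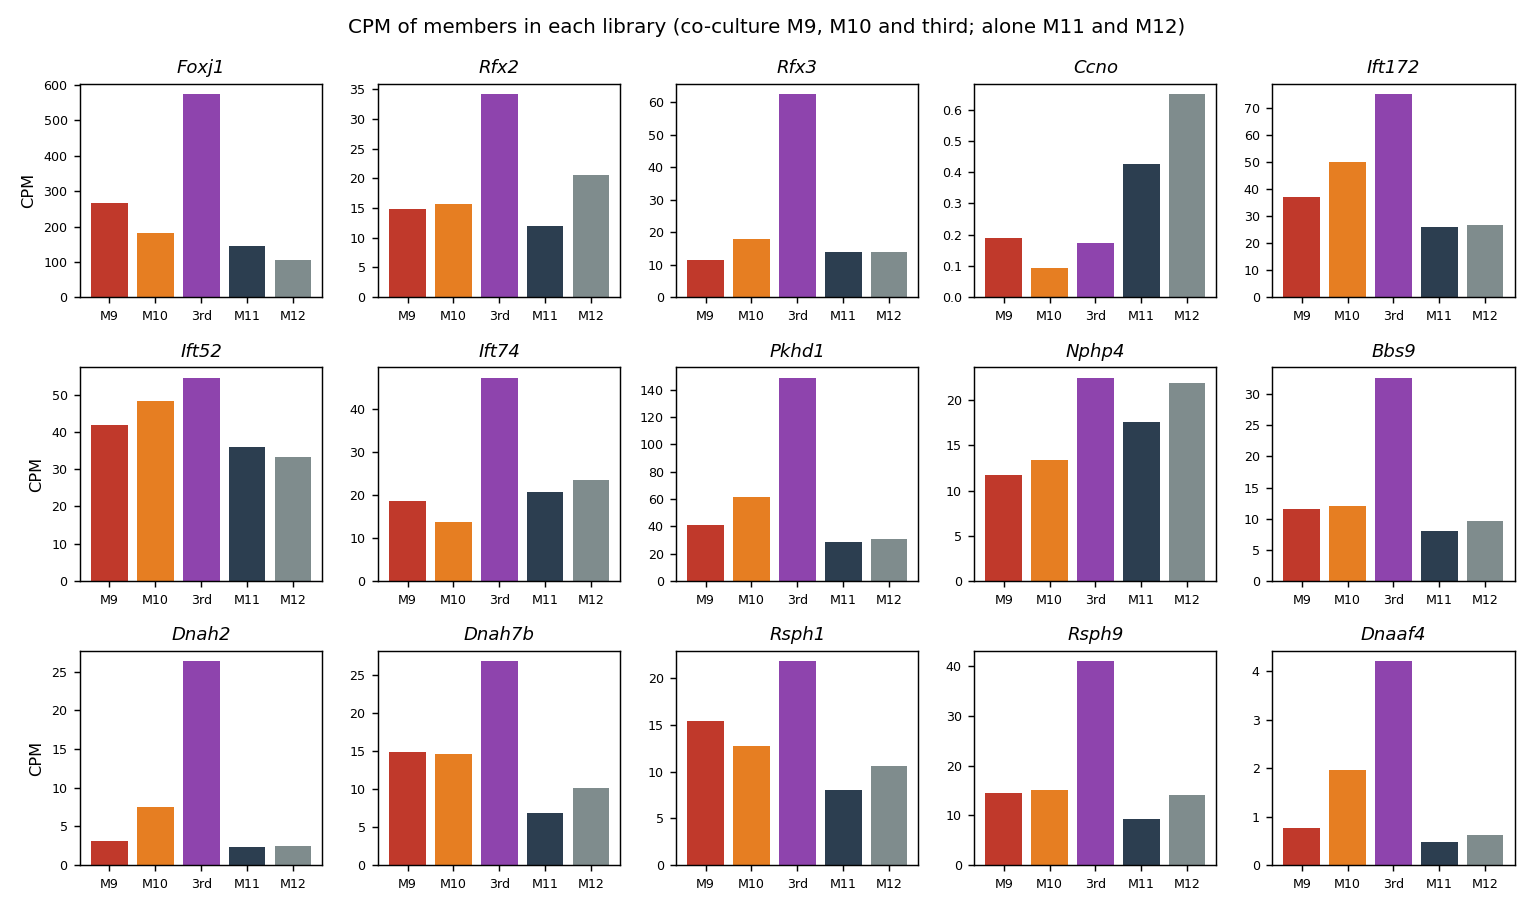
CPM (scaled over all 5 libraries, linear axes from 0) of 15 members chosen to span the roles, 1 bar per library: co-culture M9, M10 and the third (3rd), then alone M11 and M12. Foxj1, Ift172, Pkhd1, Dnah2 and Rsph1 are higher in all 3 co-culture libraries than in both libraries alone, and the third library is the highest of the 5 in all panels but Ccno.

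Of 53 tested members with the same symbol in both tables, 16 (30.2%) were higher in all 3 co-culture libraries than in both libraries alone, against 15.5% of 14733 genes, and 2 were lower in all 3, against 16.4%. The 16 were 9 motile members (Foxj1, Dnah2, Dnah6, Dnah7b, Dnaaf1, Dnaaf3, Dnaaf4, Rsph1 and Rsph9) and 7 general ones (Ift172, Ift140, Ift52, Ift43, Bbs2, Bbs9 and Pkhd1). The edgeR fit over all 5 libraries called 0 of the 53 members, but it called only 2 of the 14733 genes. With so few calls over all genes, the 0 says nothing particular to the members. Its log2 fold change was 1.44 for Foxj1, 1.04 for Ift172 and 1.49 for Pkhd1 (edgeR adjusted p = 0.492, 0.427 and 0.494).

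The third co-culture library had the highest level of the 5 for most members. Relative to M11 and M12 (the mean of their log2 CPM), 28 of the 53 members (52.8%) were over 2-fold above, against 14.5% of all genes, and 4 were over 2-fold below (Ccno, Dnah10, Dnah14 and Dnah17), against 17.6%. The median difference was 1.09 on the log2 scale, against -0.01 over all genes, and 38 members (71.7%) were above all 4 other libraries, against 32.1% of genes. With a single library there is no test, and this comparison shares M11 and M12 with the one above. The count stayed between 27 and 30 under the other scalings, units and choices of M11 or M12 that were tried. Library, gene annotation and counting cannot be told apart here, and in bulk RNA more ciliated cells cannot be told from more message per cell. The part of its depth and mitochondrial share in these differences was not tested.

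Both classes showed this. Among general members 14 of 29 were over 2-fold above organoids alone and 0 below (median 0.99); among motile members 12 of 22 were above and 4 below (median 1.16). All 8 Bbs genes were above the 4 other libraries, with log2 differences of 0.86 to 1.96 from organoids alone. IFT members split: 5 of 14 were over 2-fold above, led by Ift81 (1.56) and Ift172 (1.52), both IFT-B, while Ift20, Ift22, Ift27, Ift43 and Ift46 had log2 differences between -0.31 and 0.22. The 5 transition zone members had a median log2 difference of 0.21, and 1 was over 2-fold above (Tctn3, 1.32). Even so, 4 of the 5 were above all 4 other libraries, against 32.1% of genes. Dnah11, an outer-arm heavy chain known from left-right patterning in mice, had 1.79, 0.80 and 13.5 CPM in M9, M10 and the third co-culture library, against 1.48 and 1.70 CPM alone. Dnah17 had 65, 93 and 0 counts in M9, M10 and the third co-culture library, against 79.0 and 97 counts alone; Pgs1 overlaps it on the other strand, and the 2 tables rest on different annotations. Another 4 tested members were matched through their gene number because the tables use different symbols. Dnai4, a dynein intermediate chain, had 13.1, 19.3 and 53.6 CPM in M9, M10 and the third co-culture library, against 20.7 and 14.4 CPM alone. Dnaaf9 had 81.0, 66.3 and 56.5 CPM in co-culture, against 81.7 and 77.1 CPM alone. Dnaaf10 had 25.4, 18.6 and 25.6 CPM in co-culture, against 20.0 and 22.6 CPM alone, and Dnaaf8 1.32, 1.69 and 2.29 CPM in co-culture, against 1.67 and 1.12 CPM alone. The third library was thus the highest of the 5 for Dnai4, Dnaaf10 and Dnaaf8, by a small margin for Dnaaf10, and the lowest for Dnaaf9.

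Summed over the class, the motile members stood at 487, 401 and 964 on the per-length scale in M9, M10 and the third co-culture library, against 362 and 338 alone. Without Foxj1 the sums were 262, 249.7 and 422 in co-culture in the same order, against 231 and 247 alone, so for M9 and M10 Foxj1 made up most of the gap. The 15 axonemal dynein heavy chains summed to only 4.37, 4.91 and 14.0 in co-culture on this scale, against 3.07 and 3.65 alone. The general members summed to 607, 593 and 1069.9 in co-culture, against 577 and 603 alone. Members whose promoters hold the RFX palindrome had a median log2 difference of 0.19 in the third library (11 members), and those without it 1.09 (33 members). For the core letters GTTGCC the medians lay closer, at 0.89 with them (22 members) and 1.08 without (22 members). These medians are given as a description.

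Genes of the same structures outside the name rule were looked at in lists. In M9 and M10 against organoids alone, edgeR called 0 of their members, against 2.24% of all genes. DESeq2 called 1 in each of the centriole amplification and disassembly lists, against 1323 of 17422 genes. For limma-voom the count was 0, against 285 of 15899 genes. With no low-count filter edgeR called 1 in each of the other IFT, amplification and disassembly lists, against 4.92% of all genes. These few calls are no result about the lists. Of 19 other IFT subunits and motors tested, 12 had a positive log2 fold change (median 0.09, 2 at an unadjusted p under 0.05). In the third library 8 of the 19 (42.1%) were over 2-fold above organoids alone. The share over all genes was 14.5%, which is also the background for such counts in the lists that follow. Dync2h1, the heavy chain of the IFT dynein, had 798, 781 and 6690 counts in M9, M10 and the third co-culture library, against 657 and 772 alone, a log2 difference of 2.11 for the third. Of 17 other transition zone genes, 10 had a positive log2 fold change (median 0.05, 1 at an unadjusted p under 0.05). In the third library 9 (52.9%) were over 2-fold above. Of 12 other BBSome and transport genes, 8 were positive (median 0.08, 1 under 0.05). In the third library 2 (16.7%) were over 2-fold above, near the share over all genes. Among 9 polycystic disease genes, 4 were positive (median -0.05, 1 under 0.05); the third library's log2 difference was 0.28 for Pkd1 and 0.27 for Pkd2, the polycystins, and 1.51 for Bicc1, an RNA-binding protein.

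The other motile axoneme genes set the third library apart furthest. In M9 and M10, 11 of 22 tested had a positive log2 fold change (median 0.00, 2 under an unadjusted p of 0.05). In the third library 20 of 25 were over 2-fold above organoids alone, against 14.5% of all genes, with a median log2 difference of 2.20. Of these 25, 3 failed the low-count filter in the 4 libraries and passed it only once the third library was added. That choice favours genes high in the third library, so the count and median are a description only. Tekt1, a tektin of axonemal microtubules, had 21, 6 and 861 counts in M9, M10 and the third co-culture library, against 5 and 10 alone. Ccdc39, a ruler protein that spaces the inner arms, had 148, 142 and 2417 counts in co-culture, against 102 and 143 alone. These genes were thus detected at low level in 4 libraries and at a higher one in the third, while Sntn, a marker of mature multiciliated cells, was at 0 in all 5. A list of 10 multiciliated cell markers, taken without Foxj1, summed to 39.2, 28.3 and 111 CPM in M9, M10 and the third co-culture library, against 20.4 and 30.8 CPM alone. Cfap126 and Rsph1 made up most of the third library's sum, at 65.2 and 21.8 CPM. All genes of this list also stand among the members or the other lists, so the sum is not a separate result.

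Genes of centriole amplification and of cilium disassembly were mostly lower in the third library than in organoids alone. Of 10 tested amplification genes 4 had a positive log2 fold change in M9 and M10 (median -0.18, 1 under an unadjusted p of 0.05). In the third library 0 were over 2-fold above, against 14.5% of all genes, and 4 over 2-fold below, against 17.6%. Deup1, which builds the deuterosomes of multiciliated cells, had 3, 1 and 0 counts in co-culture, against 2 and 5 alone. Of 10 disassembly genes, 2 were positive in M9 and M10 (median -0.20, 3 under 0.05). In the third library 3 of the 10 were over 2-fold below organoids alone, against 17.6% of all genes. These were the mitotic kinases Aurka, Nek2 and Plk1, with log2 differences of -2.03, -2.10 and -2.02. Another 2 were over 2-fold above, against 14.5%: Nedd9, the scaffold that activates Aurka at the cilium (1.24), and Cep97 (1.24). Hedgehog target genes, which need a primary cilium to respond, were partly near 0: Gli1 had 3, 0 and 0 counts in M9, M10 and the third co-culture library, against 0 and 1 alone. Of the 8 hedgehog genes 4 were tested, 2 with a positive log2 fold change (median -0.12, 0 under an unadjusted p of 0.05). The receptor Ptch1 had 1205, 1570 and 3277 counts in co-culture, against 866 and 767 alone. Scaled for library size, its log2 fold change of M9 and M10 was 0.47 ± 0.21, and the third library's log2 difference was 0.88. For Smo these 2 values were -0.49 ± 0.36 and 0.38, for Sufu 0.00 ± 0.21 and 0.23, and for Gli3 -0.24 ± 0.53 and -1.82.

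**Figure D4:**
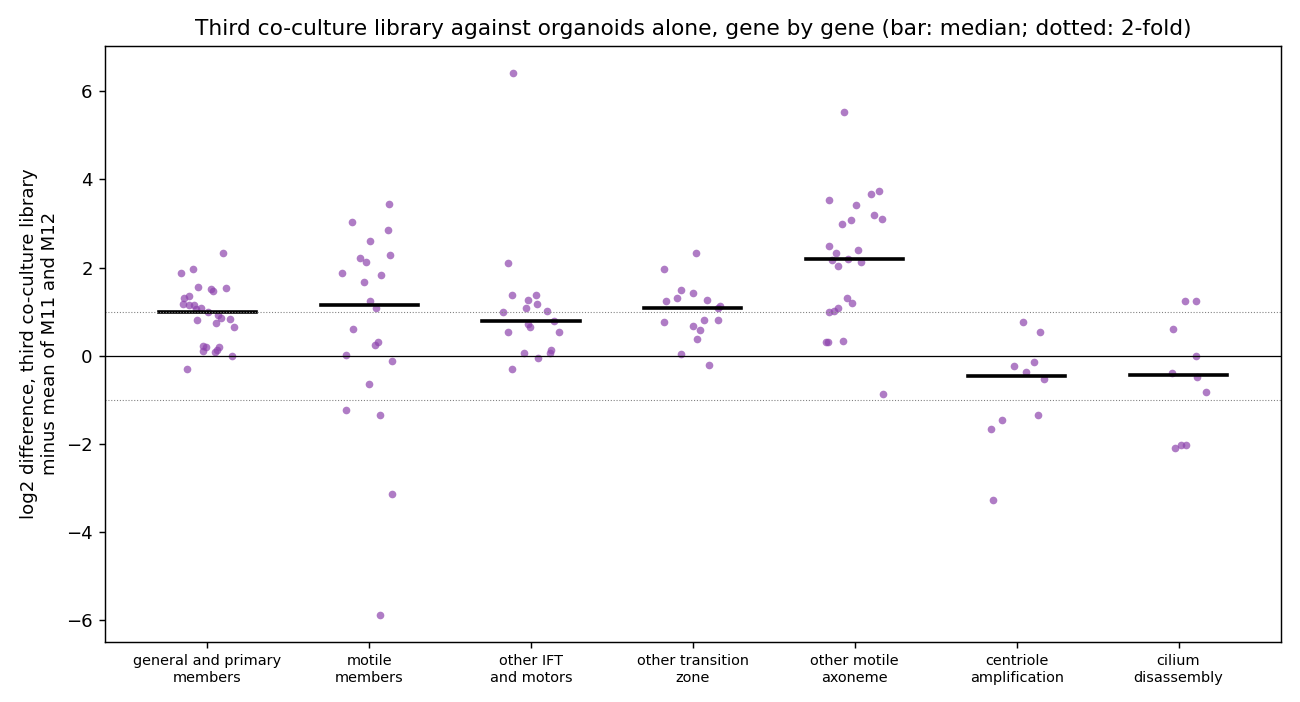
Log2 difference of the third co-culture library from the mean of M11 and M12, 1 point per gene, for the 2 member classes and 5 lists; black bars are medians and dotted lines mark 2-fold. The motile axoneme list has the highest median (2.20), the medians of the 2 member classes lie near 1, and those of the centriole amplification and disassembly lists lie below 0. The motile axoneme list includes 3 genes that passed the low-count filter only with the third library added.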

How the data were processed

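The submitters' processing notes give no roles for what they list: mm10, GRCh37, HISAT2 2.1.0, StringTie 2.1.3b, Bowtie2 2.3.4.1, FastQC 0.11.7 and Trimmomatic 0.38. The authors deposited estimated counts per Ensembl gene for M9 to M12 and whole-number counts per RefSeq gene for the third co-culture library, per the file headers; the record assigns that file to its sample, although its column carries another number. The deposited FPKM was not used here: 1 measure was kept for columns that name a group but no single sample. Estimated counts were rounded, and each gene was used once. edgeR 4.0.16 (R 4.3.3) was run on M9 to M12 with filterByExpr, TMM scaling and robust quasi-likelihood fits; DESeq2 1.42.0 and limma 3.58.1 were alternatives. The scripts were tested on simulated data. The third library was joined by symbol (53 tested members) and compared on log2 CPM with a prior count of 2. Per-length levels are counts over exon length (GENCODE M21 basic), rescaled to 1000000; matched genes held 98.7% of the third library's counts. Coordinates are from GENCODE for GRCm38, and promoters from RefSeq GRCm38.p6. Named members are, per role, the 3 most abundant and the 3 with the smallest p, plus the regulators, members at 0 and those apart by over 2-fold; others were named after their values were seen. The values of 2 members are not reported singly here. Members and lists were chosen with earlier results of these data known. The promoter interval treats promoters as independent, and the floors cover counting error only.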

Additional observations from a re-analysis of the deposited data

How the results depend on the processing

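No paired analysis was possible because the columns of the shared table carry library numbers and not the replicate numbers of the titles, so no replicate block could be fitted. The number of all genes called was 356; it was 1323 with DESeq2, 1404 with no low-count filter, 2 with all 5 libraries and between 0 and 2619 when 1 library was left out. The number of members called, 0, became 3 with no low-count filter (1 motile, 2 general) and lay between 0 and 3 when 1 library was left out (motile 0 to 1, general 0 to 2); RLE scaling, library totals, DESeq2, limma-voom, the stricter count filter and all 5 libraries also gave 0. The log2 ratio of the summed CPM of M9 and M10 over that of M11 and M12 was 0.34 for motile members and 0.09 without Foxj1, and 0.12 for general members and 0.02 per length; the planned check on the authors' own FPKM was not run, and counts per exon length, added later, took its place. The promoter share was 45.0% with the core letters in place of 21.7% with the palindrome. Of 34 named members tested, 371 values under other settings included 7 that passed the threshold where the reported one did not, and the cause was not tested. The sign of the log2 fold change turned for 1 of 58 members with DESeq2, 4 with library totals, 16 without M10 and 14 of 53 with all 5 libraries. The other alternatives for the third library were added after seeing the data. With 2 libraries a group, low-count members cannot show moderate differences.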
